A study of Mus musculus with 15 samples.

Results

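The interferon-inducible GTPases examined here are 9 mouse genes, the guanylate-binding protein genes Gbp2, Gbp3, Gbp5, Gbp6 and Gbp7 and the immunity-related GTPase genes Irgm1, Irgm2, Igtp and Iigp1. They were chosen by symbol, and all 9 were found among the 38172 symbols of the deposited table. RNA had been sequenced from 15 pieces of brain tumour from mice labelled IDH-mutant, in which glioma was started by injecting DF-1 cells, a chicken fibroblast line, expressing R132H-mutant IDH mixed with DF-1 cells expressing the growth factor PDGFB. Tumours were seen by MRI on day 28, mice were then assigned at random to treatment for 9 days, and tissue was taken on day 37. The control group (n = 3) received placebo, which was the solvent of vorinostat given in 100 µl, and no control antibody is named in the labels. The anti-PD1 group (n = 4) received 1 mg per injection of an antibody against PD-1, an inhibitory receptor of T cells. The vorinostat group (n = 4) received 1 mg per injection of that inhibitor of histone deacetylases, and the combination group (n = 4) received both agents. Every group thus carried the same tumour model. Anti-PD1 and control differ in injected antibody protein, and possibly in solvent, as well as in PD-1 blockade, which cannot be told apart here. The strain and age of the mice are not given in the sources used here, and the labels do not say whether libraries of 1 group came from separate mice, so the p-values measure the spread between these libraries.

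These genes belong to the strongest transcriptional responses to interferon-gamma, a cytokine of T cells and natural killer cells. Interferon-gamma acts on its target genes through promoter elements known as GAS elements and interferon-stimulated response elements (ISRE), the latter bound by the transcription factor IRF1. The proteins are GTPases that gather on membranes around intracellular microbes, where effector members attack the membrane, while the Irgm proteins sit on the cell's own membranes and hold the effectors inactive. In tumour tissue their transcripts are often read as a sign that cells have met interferon.

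The labels call the samples low-grade glioma cells, and the tissue held more than tumour cells. All 8 listed glioma progenitor genes were detected, at summed levels between 1610 and 11934 TPM, a read density per gene length scaled to a common total in each library, and markers of neurons, microglia and T cells were also present. Between 80.0 M and 159.3 M whole reads per library were recovered from the TPM values. The least covered gene here was Gbp6, with 42 to 3175 recovered reads per library, and the best covered was Irgm1, with 2511 to 13218. In bulk tissue, fewer cells of a type and less RNA per cell cannot be told apart, which holds for every level given here. All 9 genes passed the filter of at least 1 TPM in at least 3 libraries, but Gbp6 did so only through 5 libraries, all from mice given the antibody.

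Promoter sequences were searched for the letters of the ISRE and GAS elements. RefSeq promoters (GRCm38.p6, 250 bases before to 50 after a start site) were available for 7 of the 9 genes, Gbp6 and Iigp1 having no entry. The ISRE core was searched as GAAANNGAAA on both strands, and the GAS element as TTCNNNGAA, which reads the same on both strands and shares bases with the ISRE core only where the letters happen to overlap. Each of the 7 genes had an ISRE core, against 3.44% (1131 of 32851) of all promoters of the same length. A GAS match was found in 4 of the 7, Gbp5, Gbp7, Igtp and Irgm2, against 8.3% of all promoters. Related genes shared these matches in part: of 9 other family genes with an entry, 5 had an ISRE core and 3 a GAS match. The following stretches of 70 bases, 5′ to 3′ on the strand of the gene, are shown because they hold the element all 7 share, with the ISRE core in capitals (where it stands on the opposite strand it reads TTTCNNTTTC).
Gbp5: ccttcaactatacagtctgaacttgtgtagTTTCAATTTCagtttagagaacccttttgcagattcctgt
Gbp7: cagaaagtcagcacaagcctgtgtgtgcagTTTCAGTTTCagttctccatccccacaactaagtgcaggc
Gbp3: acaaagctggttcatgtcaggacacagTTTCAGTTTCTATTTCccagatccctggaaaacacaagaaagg
Gbp2: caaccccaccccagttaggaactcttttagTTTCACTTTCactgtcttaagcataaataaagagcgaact
Irgm1: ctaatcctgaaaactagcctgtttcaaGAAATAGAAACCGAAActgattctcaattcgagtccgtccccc
Igtp: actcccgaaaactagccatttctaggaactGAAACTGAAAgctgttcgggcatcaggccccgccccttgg
Irgm2: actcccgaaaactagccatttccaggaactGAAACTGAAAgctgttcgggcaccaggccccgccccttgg
In the promoters of Gbp3 and Irgm1 2 overlapping matches form one longer run of repeats. In the chromosome 3 genes the core stands on the opposite strand, and in Irgm1, Igtp and Irgm2 on the strand of the gene. The stretches lie at chr3:142496739-142496808 for Gbp5, chr3:142530253-142530322 for Gbp7, chr3:142559972-142560041 for Gbp3 and chr3:142620574-142620643 for Gbp2. Those of the other family lie at chr11:48871408-48871477 for Irgm1, chr11:58199492-58199561 for Igtp and chr11:58214883-58214952 for Irgm2. The Igtp and Irgm2 promoters were 90.4% identical over 270 aligned positions. A second annotated start of Gbp3 held neither motif in its window. A match describes letters in a window, and binding was not measured.

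**Figure D1:**
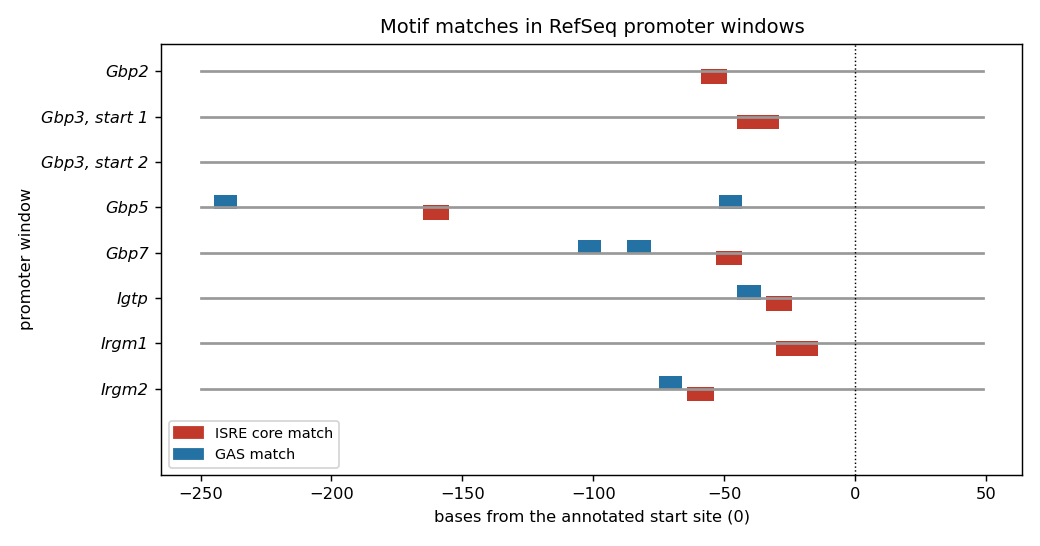
Positions of ISRE core matches (red) and GAS matches (blue) in 8 RefSeq promoter windows of 7 genes, with the x axis in bases from the annotated start site (0, dotted). The ISRE core lies within 100 bases upstream of a start in every gene except Gbp5, where it begins at -165, and the second start of Gbp3 has no match.

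The 9 genes lie on chromosomes 3, 5, 11 and 18 of the mm10 genome by the GENCODE vM21 annotation. On chromosome 3, on the plus strand, stand Gbp5 (chr3:142493978-142522344), Gbp7 (chr3:142530342-142550149), Gbp3 (chr3:142560026-142573209) and Gbp2 (chr3:142620602-142638008). Gbp6 (chr5:105270702-105293698, minus strand) belongs to a second cluster of the same family, beside its close relative Gbp10. On chromosome 11, Irgm1 (chr11:48861968-48871683) lies on the minus strand, and Igtp (chr11:58199556-58207591) and Irgm2 (chr11:58199618-58222782) overlap on the plus strand, far from Irgm1. Iigp1 (chr18:60376027-60392634) lies on the plus strand of chromosome 18. Reads of the overlapping genes Igtp and Irgm2, and of near-identical relatives such as Gbp6 and Gbp10, may have been divided between them by the counting, so the split within such a pair is uncertain.

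Among the 4 immunity-related GTPases of the set, Igtp, Iigp1 and Irgm2 had higher ratios of mean anti-PD1 to mean control TPM than Irgm1. Igtp encodes Irgm3, a regulator that protects the cell's own membranes. Its level was 3.66, 8.05 and 7.83 TPM in control libraries 1 to 3, and 5.77, 6.04, 2.90 and 9.83 TPM in vorinostat libraries 1 to 4. With anti-PD1 it was 8.31, 30.01, 27.95 and 55.8 TPM, and with the combination 11.4, 20.7, 37.3 and 15.5 TPM. Of the 8 libraries with antibody, 7 lay above all 7 without it, and anti-PD1 library 1 was the exception. Mean levels were 6.51 ± 2.48 TPM (SD, n = 3) in control and 30.5 ± 19.5 (SD, n = 4) with anti-PD1, a ratio of 4.69. The difference on log2(TPM + 1) was 1.87 ± 0.54 (SE), with a limma adjusted p of 0.0561, which did not pass 0.05.

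Iigp1 encodes the effector Irga6, which is loaded onto the membranes of parasite vacuoles. It stood at 1.44, 2.63 and 2.87 TPM in control and at 2.14, 2.04, 0.797 and 3.29 TPM with vorinostat. The libraries with anti-PD1 had 3.04, 10.8, 9.06 and 17.1 TPM and those with the combination 4.97, 9.87, 14.4 and 4.61 TPM. As with Igtp, anti-PD1 library 1 alone among the antibody libraries did not exceed all libraries without antibody. The difference of anti-PD1 from control was 1.57 ± 0.47 on log2(TPM + 1) (limma adjusted p = 0.06), and mean TPM differed 4.32-fold.

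Irgm2 is another regulator of the effector GTPases. Its control libraries had 1.46, 2.84 and 2.62 TPM and its vorinostat libraries 2.35, 2.15, 1.18 and 3.49 TPM. The anti-PD1 libraries had 2.60, 8.79, 8.03 and 11.9 TPM and the combination libraries 3.32, 8.14, 9.97 and 4.35 TPM. Here 6 of 8 antibody libraries lay above all others, and anti-PD1 library 1 and combination library 1 fell within the range of the libraries without antibody. Anti-PD1 differed from control by 1.30 ± 0.42 (limma adjusted p = 0.0685), a 3.40-fold difference of mean TPM.

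Irgm1, the master regulator of the group, followed another course. It had 24.0, 60.7 and 59.2 TPM in control, 32.7, 43.2, 45.0 and 47.0 TPM with vorinostat, 29.3, 32.2, 72.8 and 104 TPM with anti-PD1, and 44.5, 37.5, 105 and 81.3 TPM with the combination. The groups overlapped, with 4 of 8 antibody libraries above all others. Anti-PD1 differed from control by 0.22 ± 0.47 (limma adjusted p = 0.749), and without control library 1 or anti-PD1 library 4 this difference turned negative, to -0.21 at the lowest.

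Among the guanylate-binding proteins, Gbp2, which is recruited to vacuoles of parasites and bacteria, rose with anti-PD1 by 1.04 ± 0.28 on log2(TPM + 1) (limma adjusted p = 0.0486). Its levels were 2.14, 4.08 and 3.41 TPM in control and 3.10, 3.65, 2.57 and 4.67 TPM with vorinostat. They were 4.43, 7.999, 8.02 and 10.8 TPM with anti-PD1 and 5.77, 10.6, 11.3 and 6.87 TPM with the combination. The 4 anti-PD1 libraries did not overlap the 3 controls, and 7 of 8 antibody libraries exceeded the 7 others. The call stands close to its threshold. It was lost in 14 of 25 alternative analyses, among them without any 1 of the 3 control libraries. Over all 15 libraries left out in turn, the limma adjusted p lay between 0.0359 and 0.156 and the difference between 0.84 and 1.26. Over the other alternatives the difference ran from 0.90 with the neuron mean as covariate to 1.32 with voom on recovered reads (limma adjusted p of 0.3 and 0.0422).

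Gbp5, which promotes inflammasome assembly, was likewise higher in most libraries with antibody. It lay between 1.38 and 2.14 TPM in control, 1.58 and 2.58 with vorinostat, 2.05 and 5.64 with anti-PD1 and 2.62 and 4.35 with the combination. Of the 8 antibody libraries 7 lay above all others, with a difference of 0.66 ± 0.22 from control for anti-PD1 (limma adjusted p = 0.0743). Gbp6 varied most, over an 84.0-fold range among the 15 libraries. It had 0.351, 0.988, 7.47 and 5.38 TPM with anti-PD1 and 0.295, 4.58, 10.7 and 1.27 TPM with the combination, against 0.396 to 0.822 TPM in control and 0.127 to 0.698 TPM with vorinostat. Anti-PD1 library 1 and combination library 1 were as low as the controls, and the anti-PD1 difference of 1.14 ± 0.70 had a limma adjusted p of 0.25.

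Gbp3 and Gbp7 differed less between the groups than Gbp2 did, and Gbp7 has been linked to assembly of the phagocyte oxidase in macrophages. Gbp3 ranged from 6.62 to 11.7 TPM in control, 8.35 to 11.9 with vorinostat, 6.32 to 22.8 with anti-PD1 and 11.9 to 18.7 with the combination. Gbp7 ranged from 8.68 to 17.1 TPM in control, 12.01 to 13.2 with vorinostat, 10.3 to 25.9 with anti-PD1 and 14.9 to 26.6 with the combination. For both genes anti-PD1 overlapped control, and it differed from control by 0.36 ± 0.33 for Gbp3 (limma adjusted p = 0.428) and 0.24 ± 0.30 for Gbp7 (limma adjusted p = 0.573). The combination lay wholly above vorinostat for Gbp7, and the ranges of these groups barely met for Gbp3. Without control library 1 the Gbp7 difference was -0.02.

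**Figure D2:**
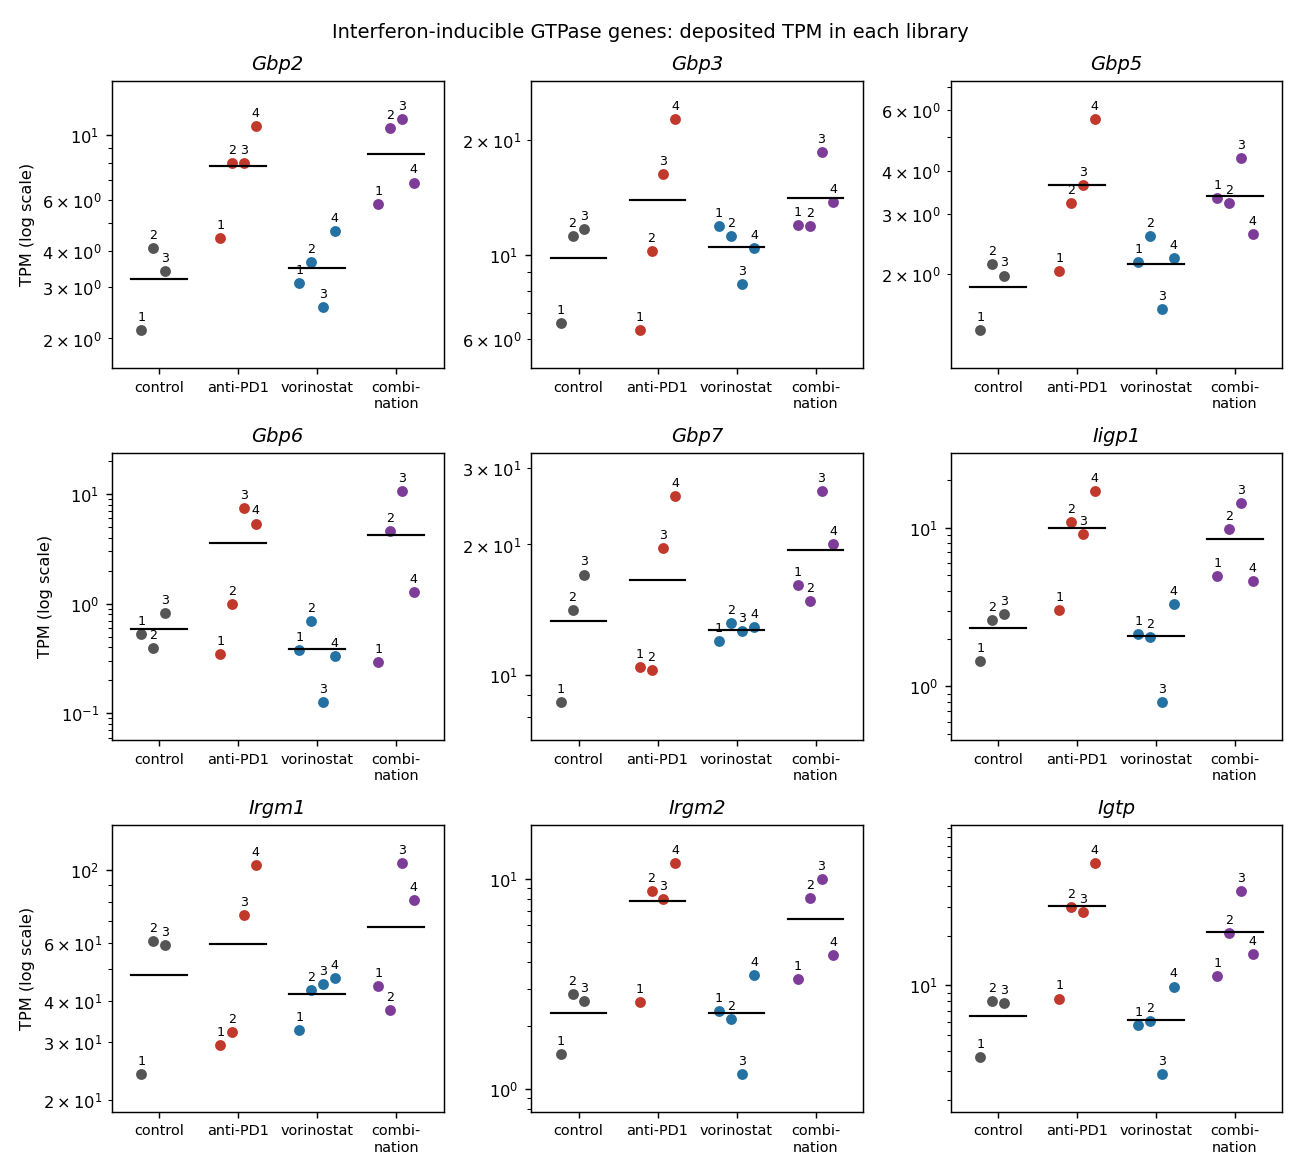
TPM of the 9 genes in each of the 15 libraries on log axes, 1 point per library labelled with its number, with bars at group means. For Igtp, 7 of the 8 antibody libraries lie above all 7 others and anti-PD1 library 1, at 8.31 TPM, does not.

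In anti-PD1 vs control 1 of the 9 genes was called at an adjusted p under 0.05, against 5.29% of all 19390 genes tested (344 higher and 682 lower). Gbp6 is left out of the counts and medians that follow, since libraries with antibody alone brought it past the filter. The other 8 differences were all above 0, with a median of 0.85 on log2(TPM + 1) against -0.14 over all genes, and 5 of the 8 had an unadjusted p under 0.05, as did 34.2% of all genes. Rescaling the libraries by median of ratios moved the median of all genes from -0.14 to -0.01. Without anti-PD1 library 1, the low one, 4 of 9 were called among 155 of all genes. Without control library 1, 2 or 3 none of the 9 was called, but then 0, 2 and 11 of all genes were, so that count says nothing of these genes in particular.

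Vorinostat alone gave small differences. The 9 differences from control ran from -0.20 for Gbp6 to 0.15 for Gbp5, with standard errors from 0.22 to 0.70. Changes of several times those errors could also have gone uncalled. Gbp2 in combination vs control, at 1.18 ± 0.28, was not called (limma adjusted p = 0.256). By limma 0 of 9 were called, against 0.00516% of all genes, none had an unadjusted p under 0.05, and every adjusted p was 1. Voom on recovered reads also called 0.

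With the combination, the 8 genes besides Gbp6 again lay above control, with a median difference of 0.86 against -0.03 over all genes. By limma 0 of 9 were called, against 0.0206% of all genes, with 5 of the 8 at an unadjusted p under 0.05 (5.76% of all genes) and 0 called by voom. Gbp2 differed by 1.18 ± 0.28 (adjusted p = 0.256), Igtp by 1.498 ± 0.54 (adjusted p = 0.677) and Iigp1 by 1.41 ± 0.47 (adjusted p = 0.61), all by limma. Against vorinostat, the combination gave 0 of 9 calls, against 0.0103% of all genes, with 5 of the 8 at an unadjusted p under 0.05 (4.81% of all genes) and 0 called by voom. In that comparison Gbp2 differed by 1.08 ± 0.26 and Iigp1 by 1.56 ± 0.44 (limma adjusted p of 0.467 and 0.563). The comparisons of anti-PD1 and the combination with placebo share the control libraries.

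Adding vorinostat to the antibody gave no call among the 9 genes by limma, against 0.0155% of all genes, and none by voom or at an unadjusted p under 0.05. Combination minus anti-PD1 ran from -0.37 ± 0.50 for Igtp to 0.28 ± 0.28 for Gbp7, on a scale where all genes had a median of 0.13. The interaction, which is the antibody's effect with vorinostat minus its effect without, ran from -0.27 ± 0.74 for Igtp to 0.34 ± 0.64 for Irgm1. It also gave 0 of 9 calls by limma (0.0103% of all genes), by voom and at an unadjusted p under 0.05. Its standard errors, between 0.30 and 0.95, leave sizeable interactions of either sign undetected.

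**Figure D3:**
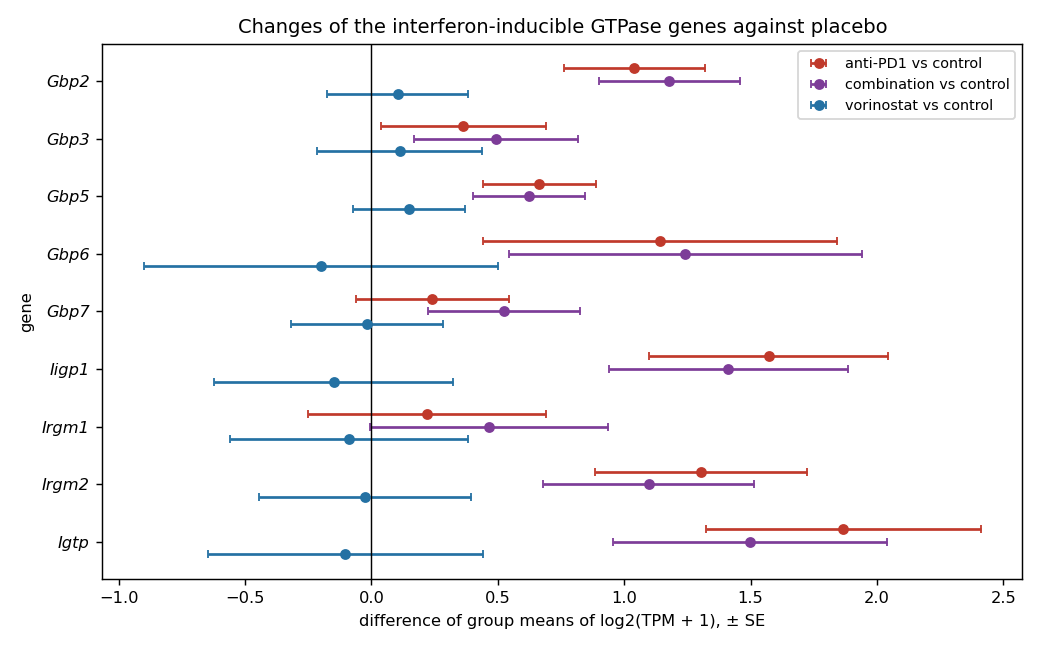
Differences of group means of log2(TPM + 1) from control with standard errors, for anti-PD1 (red), the combination (purple) and vorinostat (blue), 3 or 4 libraries per group. The points for anti-PD1 and the combination lie right of 0 for all 9 genes, from 0.22 to 1.87, and those for vorinostat between -0.20 and 0.15.

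Averaged over mice with and without vorinostat, the antibody raised Gbp2 by 1.06 ± 0.19 (limma adjusted p = 0.0331), and the other 8 genes did not pass. This call on Gbp2 was lost in 12 of 24 alternative analyses. It was 1 of 9 called, against 0.469% of all genes (46 higher and 45 lower), and 5 of the 8 besides Gbp6 had an unadjusted p under 0.05, against 22.1% of all genes. Iigp1 differed by 1.57 ± 0.32 (adjusted p = 0.0514), Igtp by 1.73 ± 0.37 (adjusted p = 0.0524), Irgm2 by 1.21 ± 0.29 (adjusted p = 0.0638) and Gbp5 by 0.57 ± 0.15 (adjusted p = 0.0816), by limma. Gbp6 (1.29 ± 0.48), Gbp7 (0.39 ± 0.21), Irgm1 (0.39 ± 0.32) and Gbp3 (0.37 ± 0.22) had larger adjusted p-values, from 0.152 to 0.458. Without anti-PD1 library 1, 5 of 9 were called among 118 of all genes. With the library number as a block, 4 of 9 were called among 663 of all genes, Gbp2 among them (limma adjusted p = 0.0211). The numbers did not match throughout between the groups contrasted here, so that count is given as an alternative only. Anti-PD1 and combination libraries of the same number, both on the antibody side, did deviate together (correlations of 0.20 to 0.64). The main fit takes all libraries as independent, so its standard errors do not allow for this. Without control library 1, 2 or 3 none of the 9 was called, when 7, 15 and 12 of all genes were.

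Levels per exon length allow the genes to be set in order, since the deposited TPM divide by the whole gene span. In control, exon-length TPM were 33.4 ± 14.3 for Irgm1, 19.6 ± 6.15 for Gbp7, 16.5 ± 4.56 for Gbp3, 10.8 ± 4.03 for Igtp and 9.26 ± 2.78 for Gbp2 (SD, n = 3). Below these came Irgm2 at 6.03 ± 1.89, Gbp5 at 3.27 ± 0.696, Iigp1 at 2.75 ± 0.890 and Gbp6 at 0.940 ± 0.350. Neighbours in this order overlapped in their control ranges with 2 exceptions. The lowest Irgm2 library (3.87) lay just above the highest of Gbp5 (3.80), and the highest of Gbp6 (1.32) lay below the lowest of Iigp1 (1.74). With anti-PD1, Igtp had the highest mean level, 52.6 ± 33.8, ahead of Irgm1 at 42.8 ± 25.4, though their ranges (14.3 to 96.3 and 21.2 to 75.5) overlapped widely.

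A change in the ratio of 2 genes within a library does not depend on how libraries are scaled or on gene length. The ratios themselves are of TPM per gene span and do not give which gene is more abundant. All 16 pairs within the guanylate-binding proteins and within the immunity-related GTPases were examined, averaging libraries with minus without antibody over both vorinostat states, with an exact two-sided permutation test of the antibody label within vorinostat state (2450 labellings). This measure was chosen after the levels had been seen: 6 of the pairs, those in the plot of ratios, were tested first, and the test was then extended to all 16. The labellings treat the libraries as independent. Yet libraries of the same number deviated together in anti-PD1 and the combination (correlations of 0.20 to 0.64). No version of the test that keeps such libraries together was run, so the exact p-values do not allow for this. Of the 12 pairs without Gbp6, the ratio changed in 9 at a p adjusted over all 16 below 0.05. Pairs of other genes were not tested, so how often such a ratio changes in these libraries is not known. Pairs that share a gene are not separate results either. The log2 ratio of Igtp to Irgm1 was -2.85 in control, -1.05 with anti-PD1, -2.89 with vorinostat and -1.68 with the combination, an averaged rise of 1.51 (exact p = 0.00122, adjusted p = 0.0049). Those of Iigp1 and Irgm2 to Irgm1 were raised by 1.59 (exact p = 0.00204, adjusted p = 0.00653) and 1.14 (exact p = 0.00531, adjusted p = 0.0106). The difference between antibody and no antibody was thus larger for Igtp, Irgm2 and Iigp1 than for Irgm1 in the same libraries.

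A similar split ran through the guanylate-binding proteins. The log2 ratio of Gbp2 to Gbp3 was -1.62 in control, -0.74 with anti-PD1, -1.60 with vorinostat and -0.74 with the combination, a rise of 0.87 with an exact p of 0.000408, the smallest that these labellings can give (adjusted p = 0.0049). The ratio of Gbp2 to Gbp7 rose by 0.86 (exact p = 0.00122, adjusted p = 0.0049) and that of Gbp2 to Gbp5 by 0.48 (exact p = 0.0049, adjusted p = 0.0106). Gbp3 to Gbp7 moved by -0.01 (exact p = 0.906) and Igtp to Iigp1 by -0.08 (exact p = 0.451), neither past the threshold. Irgm2 to Iigp1, which lie on different chromosomes, moved by -0.44 (exact p = 0.000816, adjusted p = 0.0049). Irgm2 thus rose less than Iigp1, so the genes that rose more than Irgm1 did not all change alike. The ratios of Igtp to Irgm1, Gbp2 to Gbp3 and Gbp2 to Gbp7 kept an exact p of at most 0.00429 when any library was left out. Igtp to Irgm2, at 0.36 (exact p = 0.0049, adjusted p = 0.0106), concerns overlapping genes, and the part of read assignment in it was not tested.

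**Figure D4:**
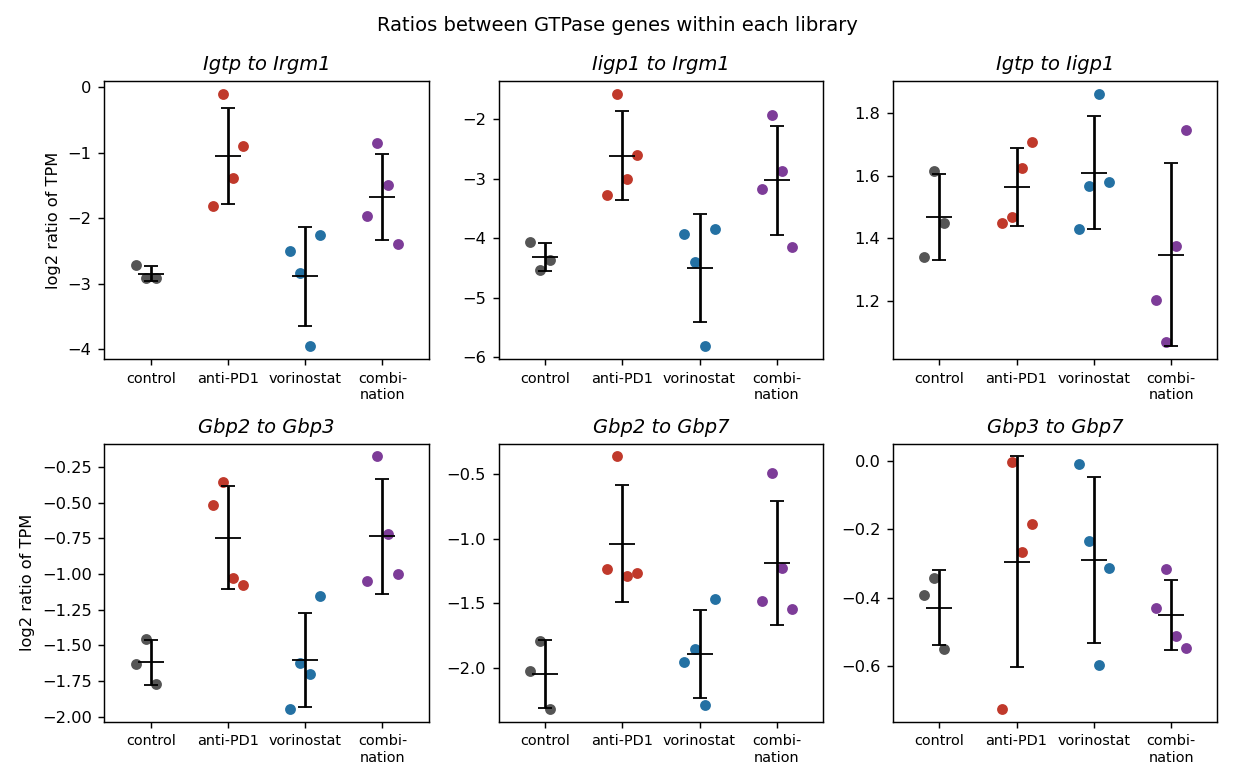
Log2 ratios of TPM between pairs of genes in each library by group, with black bars for the mean and SD (n = 3 for control, 4 for the others). Igtp to Irgm1 averages -2.85 in control and -1.05 with anti-PD1, while Gbp3 to Gbp7 averages between -0.45 and -0.29 in all groups.

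Over the 15 libraries the genes fell into similar courses, described here without a test, since the libraries share the treatment differences. Igtp, Iigp1, Irgm2, Gbp2 and Gbp5 had Pearson r between 0.91 and 0.99 in every pair. Irgm1 and Gbp7 had an r of 0.95, and Gbp3 and Gbp7 0.91, while Irgm1 and Iigp1 had 0.54. Libraries anti-PD1 2 and combination 2 separated the courses: Igtp was at 30.01 and 20.7 TPM there, above all libraries without antibody, whereas Irgm1 was at 32.2 and 37.5 TPM, below controls 2 and 3. Both libraries also had the lowest glioma progenitor sums (1610 and 1791 TPM) and cell cycle sums (219 and 291 TPM) of the 15. The part of tumour content in this split was not tested.

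**Figure D5:**
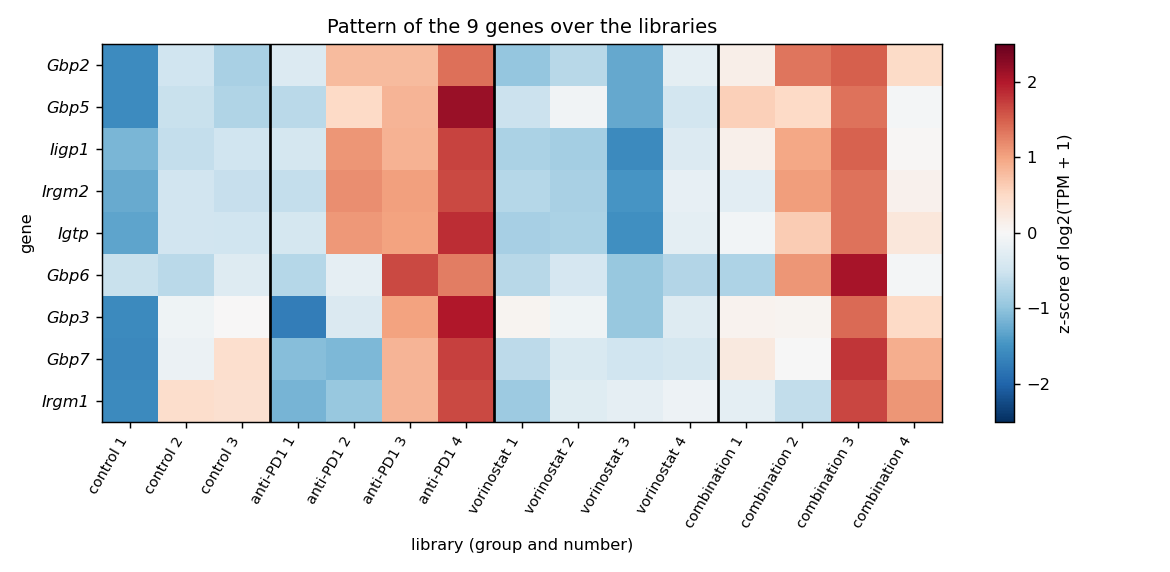
Z-scores of log2(TPM + 1) of the 9 genes (rows) over the 15 libraries (columns), with black lines between the groups. Anti-PD1 library 4 and combination library 3 are high for all 9 genes, and anti-PD1 library 2 is high for the upper 5 rows and low for Gbp7 and Irgm1.

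Other members of the families were examined from a list of 20, of which 15 passed the filter. By limma 0 of 15 were called in any comparison. Of the 15, 8 would not have passed the filter by the libraries without antibody and are left out of the count here, a step added after seeing the data, as it is for the lists that follow. Of the other 7, 6 had an unadjusted p under 0.05 in the averaged antibody effect, against 22.1% of all genes. Tgtp2, which has a near-identical copy in Tgtp1, had the largest averaged difference, 2.41 ± 0.54 (limma adjusted p = 0.0599). It stood at 1.72, 3.34 and 3.84 TPM in control and at 3.42, 31.2, 25.0 and 47.6 TPM with anti-PD1. Gm12250 (1.55 ± 0.36), Tgtp1 (1.93 ± 0.45) and Ifi47 (0.97 ± 0.23), the last among the 8 left out, had adjusted p-values of 0.0622, 0.0627 and 0.067. Gm4951, F830016B08Rik, Gbp10 and Gbp11 were among those that reached 1 TPM only with antibody. Gbp2b, Gbp8, Gm5431, Irgc1 and Mx1 were below the filter.

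The signalling chain above these genes showed smaller differences by the median. Ifng itself was listed between 0 and 0.350 TPM per library and was not tested. Of 19 genes of interferon signalling 17 were tested, 0 were called by limma, and 0 had an unadjusted p under 0.05 for the averaged antibody effect (22.1% of all genes), with a median of 0.07 against -0.05 over all genes. Irf1, the transcription factor of the ISRE, differed by 0.41 ± 0.19 (limma adjusted p = 0.227), Socs1, a feedback inhibitor, by 0.42 ± 0.20 (adjusted p = 0.228), and Stat2 by 0.23 ± 0.11 (adjusted p = 0.238). For Irf1 and Socs1 this was about as much as for Gbp3 (0.37), Irgm1 (0.39) and Gbp7 (0.39), while the 8 GTPase genes besides Gbp6 had a median of 0.81.

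Other targets of interferon-gamma numbered 16, of which 13 were tested and 0 called for the averaged antibody effect by limma, against 0.469% of all genes. Without Cxcl9, Ido1 and Nlrc5, which passed the filter through libraries with antibody, 8 of the other 10 had an unadjusted p under 0.05, against 22.1% of all genes, with a median of 0.89. Cxcl9, a chemokine that attracts T cells, differed by 1.60 ± 0.33 (adjusted p = 0.0514), and H2-K1, an MHC class I heavy chain, by 1.25 ± 0.27 (adjusted p = 0.0535). Psmb9, a subunit of the immunoproteasome, differed by 1.19 ± 0.28 (adjusted p = 0.0627) and Cd74, the invariant chain of MHC class II, by 1.81 ± 0.45 (adjusted p = 0.0735). Of 14 targets shared with type I interferon, 14 were tested and 0 called. Leaving out Rtp4 for the same reason, 4 of 13 had an unadjusted p under 0.05, near the share of all genes, with a median of 0.32. Bst2, a tether of budding viruses, differed by 0.58 ± 0.24 and Xaf1 by 0.40 ± 0.17 (limma adjusted p of 0.185 and 0.195), while Oasl2 differed by 0.54 ± 0.24 and Ifit2 by -0.57 ± 0.25 (limma adjusted p of 0.212 and 0.208). Of 10 partners of these GTPases in autophagy and the inflammasome 8 were tested and 0 called, with 4 of the 7 besides Nlrp3 at an unadjusted p under 0.05 and a median of -0.03. Gsdmd, which forms pores downstream of inflammasomes, differed by 0.44 ± 0.10 (limma adjusted p = 0.0561), while of the conjugation system that loads these GTPases onto vacuoles Atg16l1 differed by 0.18 ± 0.07, Atg3 by -0.23 ± 0.10 and Atg5 by -0.16 ± 0.07 (limma adjusted p of 0.18, 0.198 and 0.218).

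The genes whose course over the 15 libraries was most like the mean z-score of the 9 were, among 13259 candidates, Psmb8, H2-Q1 and H2-K1 (Pearson r = 0.96 each) and Tap1, Cfb, Parp10, B2m, H2-D1 and H2-Q7 (r = 0.95 each). They were chosen for this likeness, so no test of a group difference is given for them here.

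Markers of other cells also differed between the groups. The summed level of 14 T and natural killer cell markers, all detected in every group, was 3.46 to 6.33 TPM in control, 3.30 to 7.68 with vorinostat, 8.82 to 22.01 with anti-PD1 and 9.58 to 21.9 with the combination, so the antibody groups did not overlap the others. Only 6 of these 14 passed the filter, and 1 of the 6, Gzmb, a cytotoxic granule protease, rose for the averaged antibody effect (1.03 ± 0.15, limma adjusted p = 0.0161), while Cd8a differed by 1.02 ± 0.22 (limma adjusted p = 0.0514). Both passed the filter through libraries with antibody, so neither supports a direction. Anti-PD1 library 1, low for most of the 9 genes, also had the lowest T and natural killer sum among antibody libraries, 8.82 TPM. Neuron markers (14 of 16 in the table) summed to 770 to 1245 TPM in control, 496 to 1914 with vorinostat, 1286 to 2664 with anti-PD1 and 915 to 1511 with the combination. The sums of 18 cell cycle genes were 970 to 1207, 649 to 1418, 219 to 584 and 291 to 1074 TPM in the same order. For both lists anti-PD1 did not overlap control, and vorinostat and the combination did. Microglia and macrophage markers (14 of 14) overlapped, at 705 to 1104 TPM in control and 709 to 1144 with anti-PD1. With the neuron mean as a covariate 0 of 9 were called in anti-PD1 vs control, when only 4 of all genes were. That count therefore says nothing of these genes in particular. Gbp2 then differed by 0.90 ± 0.36 (limma adjusted p = 0.3), and with the microglia and macrophage mean by 1.13 ± 0.28 (limma adjusted p = 0.0537). The part of T cells and of the tumour cell share in the levels of these genes was not tested.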

How the data were processed

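Total RNA was made into libraries with the NEBNext Ultra RNA kit per the labels' protocols, and FastQC, HISAT2, StringTie and DESeq2 with mm10 are named in the submitters' processing notes. The authors deposited 1 table of TPM for 38172 symbols in 15 libraries, whose name also carries "adj", a term not explained in the sources used here. TPM times gene span gave whole reads, within 0.001 reads, for 36010 of 36477 symbols with 1 annotated gene (98.7%). The authors' lengths thus include introns, which lowers the TPM of genes with long introns. Differences are of log2(TPM + 1), which understates changes of low genes. Tests used limma 3.58.1 (R 4.3.3) with 1 mean per group, all 15 libraries, an eBayes trend and Benjamini-Hochberg adjustment at 0.05 over the 19390 genes that reached 1 TPM in 3 or more libraries. Voom was run on recovered reads, where 1593 genes were called in anti-PD1 vs control.

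Members and gene lists were chosen with earlier results of these data known. All 9 members are named, with up to 4 genes of smallest p in the averaged antibody effect per list and the 10 genes of most similar course, from which unnamed gene models were left out. A gene that this rule also selects is not reported here. Libraries of the same number deviated together in anti-PD1 and the combination (correlations of 0.20 to 0.64 in 4 pairs), not throughout in other pairs of groups. Those of number 3 deviated together in every pair of groups (correlations of 0.30 to 0.55). Promoters are from RefSeq (GRCm38.p6).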

Additional observations from a re-analysis of the deposited data

How the results depend on the processing

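Calls among the 9 genes were few and depended on the setting. In anti-PD1 vs control, 1 was called. It became 0 with no filter, with only the groups compared or with the neuron mean as covariate, and 2 at a mean of at least 5 TPM, with exon-length TPM or with the replicate block. With 1 library left out it lay between 0 and 4. For the averaged antibody effect, 1 was called. It became 0 with no filter or the neuron mean as covariate, 2 with exon-length TPM, 3 with median-of-ratios scaling, and 4 with the replicate block or the microglia and macrophage mean as covariate. With 1 library left out it lay between 0 and 5. The count stayed at 0 in the 5 other comparisons under every alternative run, the replicate block in combination vs anti-PD1 included. Over all genes, anti-PD1 vs control called 1026 genes, 300 with no filter, 183 with only the groups compared, 4 with the neuron mean, 484 with the microglia mean, 2621 with the replicate block and 1593 with voom. It called 1073 at a mean of at least 5 TPM and 1490 with exon-length TPM. Without anti-PD1 library 3 it called 4982, with 3 of the 9 among them. The averaged effect called 91 genes, 60 with no filter, 53 at a mean of at least 5 TPM, 171 with median of ratios, 48 with the neuron mean, 663 with the replicate block and 44 with voom. It called 108 with exon-length TPM and 129 with the microglia mean. The causes were not tested. At a mean of at least 5 TPM, Gbp5, Gbp6 and Irgm2 were not among the genes tested.

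Of 63 pairs of a gene and a comparison, 24 changed sign when a library was left out and 16 under another alternative, each in a difference that was not called. In anti-PD1 vs control, leaving out libraries gave -0.017 to 0.43 for Gbp7 and -0.21 to 0.49 for Irgm1. In vorinostat vs control the ranges were -0.095 to 0.25 for Gbp2, -0.12 to 0.24 for Gbp3, -0.27 to 0.17 for Gbp7, -0.36 to 0.085 for Iigp1, -0.52 to 0.13 for Irgm1, -0.22 to 0.16 for Irgm2 and -0.42 to 0.16 for Igtp. Median-of-ratios scaling gave 0.041 for Gbp7 and 0.019 for Irgm2 there, and the neuron mean 0.053 for Gbp7 and 0.030 for Irgm1. In combination vs anti-PD1 they were -0.077 to 0.29 for Gbp2, -0.17 to 0.40 for Gbp3, -0.22 to 0.15 for Gbp5, -0.45 to 0.61 for Gbp6, -0.58 to 0.14 for Iigp1, -0.022 to 0.58 for Irgm1, -0.59 to 0.023 for Irgm2 and -0.87 to 0.0014 for Igtp. There median of ratios gave -0.0046 for Gbp3. The neuron mean gave -0.019 for Gbp3, -0.17 for Gbp6, -0.027 for Gbp7, 0.13 for Iigp1, -0.28 for Irgm1 and 0.027 for Irgm2, and the microglia mean -0.082 for Gbp3 and -0.087 for Irgm1.

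In the interaction they were -0.18 to 0.23 for Gbp2, -0.28 to 0.29 for Gbp3, -0.37 to 0.0023 for Gbp5, -0.25 to 0.81 for Gbp6, -0.43 to 0.29 for Iigp1, -0.57 to 0.048 for Irgm2 and -0.77 to 0.10 for Igtp. Iigp1 was 0.087 with a pseudocount of 0.1, 0.083 with the replicate block, 0.35 with the neuron mean and 0.061 with voom. Median of ratios gave -0.14 for Gbp2 and -0.17 for Gbp3, the microglia mean -0.043 and -0.14, exon-length TPM -0.027 and -0.032, and voom -0.046 and -0.0084. The neuron mean gave -0.16 for Gbp3, -0.033 for Gbp6, -0.080 for Gbp7, -0.31 for Irgm1 and 0.10 for Irgm2. Leaving out libraries, added after seeing the data, moved the log2 ratio of Gbp3 to Gbp7 between -0.065 and 0.058, and no other of the 16 ratios changed sign.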
